A study of Homo sapiens with 12 samples.

Results

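The expression of 47 lysosome and autophagy genes was examined by RNA-seq in HEK293T cells, a human embryonic kidney line that carries the SV40 large T antigen, after siRNA knockdown of the arginine methyltransferase CARM1 or of 4 proteins of the NuRD chromatin remodeling complex. The name HEK293T is that of the sample titles, whereas the text of the study names HEK293 cells for this experiment. The genes were taken from a written list and fall into 9 roles, from the transcription factors TFEB, TFE3 and MITF to lysosomal enzymes, the proton pump and the autophagy machinery. All 47 were matched by Ensembl identifier, among 58662 matched genes in all. Of these, 45 were among the 12830 coding genes tested, that is, coding genes with a group mean above 0.5 FPKM (fragments scaled to exonic length and library total) in any of the 6 groups. CTSF, a cysteine cathepsin, and CLN3, a lysosomal membrane protein, did not reach this level and were not tested.

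The 12 libraries form 6 groups of 2, transfected with control siRNA (siCTL), siCARM1, siCHD4 (the ATPase of NuRD), siHDAC2 (a histone deacetylase), siGATAD2A (a zinc-finger subunit) or siKDM1A (a histone demethylase). All cells were of the genotype given as WT, grown in DMEM with 10% FBS, and the time after transfection is not given in the sources used here. The study asked how CARM1 and NuRD act together in gene activation. The methods give 1 siRNA sequence for each NuRD protein and 2 for CARM1, and the labels do not say which CARM1 sequence was used, so effects of a sequence on other transcripts cannot be told apart from those of the targeted protein. The labels also do not say that replicates came from separate cultures, so p-values measure only the spread between these libraries.

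Lysosomes are acidic organelles that break down proteins, glycans and lipids delivered by endocytosis or by autophagy, the process in which a double membrane encloses cytoplasm and fuses with the lysosome. Many genes of the lysosome carry the CLEAR element in their promoters, a palindromic E-box bound by TFEB, TFE3 and MITF, which enter the nucleus when nutrient signaling through mTORC1 at the lysosome falls. CARM1 is known as a coactivator of TFEB, which makes these genes a set of interest in a CARM1 knockdown.

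Promoters of the list were read from RefSeq (GRCh38.p14), from 250 bases before to 50 after the start, and 37 of the 47 genes matched a window. LAMP2, CTSB, HEXA, NAGLU, PSAP, ATP6V1A, ATP6V1H, UVRAG, VPS18 and RRAGD had no window, so whether they hold these letters is not known here. The core of the CLEAR element, TCACGTGA, was found in 8 of these 37 windows (21.6%), as against 283 of 27305 promoters of all genes (1.04%) and 197 of 10395 promoters of tested coding genes (1.90%). The plain E-box, CACGTG, of which the longer core is an extension, was found in 13 windows (35.1%), as against 7.43% of all promoters and 10.2% of those of tested genes. The list was chosen as genes on which TFEB acts, so shares above those of all promoters can follow from that choice. They are given as description only. Both words are palindromes and read the same on either strand. These stretches of 30 bases are shown since the genes below are described by whether they hold this core, which stands in capitals.
LAMP1, chr13:113297199-113297228, plus strand: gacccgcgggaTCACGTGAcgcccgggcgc
MCOLN1, chr19:7522598-7522627, plus strand: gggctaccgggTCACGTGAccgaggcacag
CLN3, chr16:28492058-28492087, minus strand: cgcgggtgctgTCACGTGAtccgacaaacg
CTSA, chr20:45891298-45891327, plus strand: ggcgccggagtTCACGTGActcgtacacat
GAA, chr17:80101538-80101567, plus strand: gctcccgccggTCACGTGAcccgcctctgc
GALNS, chr16:88857104-88857133, minus strand: caggcaccgcgTCACGTGAcccgccgctgg
ATP6V0D1, chr16:67481199-67481228, minus strand: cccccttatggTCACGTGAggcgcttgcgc
VPS11, chr11:119067772-119067801, plus strand: gctggctcagcTCACGTGAcaaagctcccg

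Of the 5 genes with only the plain E-box, NEU1 and CTSD are shown because their transcripts are followed below, with CACGTG in capitals. The other 3 are CTSF, ATG14 and FNIP1. A match says only that these letters stand in the window, and no binding was measured here.
NEU1, chr6:31862930-31862959, minus strand: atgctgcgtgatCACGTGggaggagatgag
CTSD, chr11:1763957-1763986, minus strand: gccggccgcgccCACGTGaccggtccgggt

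The libraries held 19308315 to 28648657 counts on genes on the strand used. Each targeted gene was lower in its own knockdown, with levels given as CPM, the count scaled to the normalized library total. CARM1 was at 127 and 125 CPM in siCTL and 25.2 and 23.4 in siCARM1, a log2 fold change of −2.37 ± 0.06 (SE). HDAC2, GATAD2A and KDM1A changed by −2.35, −1.74 and −2.59. CHD4 changed less, from 39.5 and 39.7 to 26.7 and 27.9 CPM (−0.54 ± 0.07), and 46.9% of its exonic bases are shared with another annotated gene on the same strand, where read pairs that fall on both are not counted. The targets also moved in other knockdowns, in both directions. In group means, GATAD2A was at 174 CPM in siCTL and 369 in siCHD4. CHD4 was at 39.6 in siCTL and 31.7 in siCARM1. KDM1A was at 176 in siCTL, 204 in siCARM1 and 151 in siGATAD2A, and CARM1 at 126 in siCTL and 151 in siKDM1A. The keratins KRT8 and KRT18, VIM and CDH2 were expressed in every group, with CDH2 at 64.9 to 107 CPM, and the markers of other cell types PTPRC, CD3E, ALB and INS were at 0 to 0.433 CPM in the group means.

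A gene was called when its Benjamini-Hochberg adjusted p in edgeR's quasi-likelihood test was 0.05 or less, over all 12830 genes, and its fold was at least 1.2, which is 0.263 on the log2 scale. In siCARM1, 10 of the 45 genes fell and 4 rose against siCTL, where 14.5% of all tested genes fell and 14.9% rose. That is 22.2% of the list lower and 8.89% higher. In siCHD4, which moved the most genes overall (24.9% lower, 24.0% higher), 12 fell and 12 rose. In siHDAC2, 4 fell and 2 rose (all genes 9.00% and 10.6%), in siGATAD2A 14 fell and 5 rose (18.2% and 15.7%), and in siKDM1A 13 fell and 4 rose (11.5% and 14.2%). The share of the list that fell thus stood above that of all genes by the widest margins in siKDM1A (28.9%), siGATAD2A (31.1%) and siCARM1 (22.2%), and near it in siCHD4 (26.7%) and siHDAC2 (8.89%). The list was chosen with earlier results of these data known, so these margins are description and were not tested. As a transcript level in bulk RNA, a lower value can come from fewer expressing cells or from less RNA per cell, and these cannot be told apart.

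The changes were small. The median log2 fold change of the list was −0.15 in siKDM1A, −0.06 in each of siCARM1, siHDAC2 and siGATAD2A, and −0.02 in siCHD4, where the medians over all genes lay between −0.002 and 0.005. The median fold of the 80 called changes was 1.32, and 2 of them were over 2-fold, NEU1 in siCARM1 and GALNS in siCHD4. The 5 comparisons share the siCTL libraries. Where libraries are said below to lie above or below both siCTL libraries, this is description. With 2 libraries against 2, an exact permutation test cannot give a p under 0.333. The share of all tested genes with such a position is not given here. Of the 45 genes, 20 fell in at least 1 knockdown and rose in none (44.4%, as against 32.8% of all tested genes), 10 rose in at least 1 and fell in none (22.2% against 30.7%), and 5 moved in both directions (11.1% against 9.47%). The other 10 were called in none of the 5, so that 77.8% of the list and 73.0% of all genes were called at least once.

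**Figure D1:**
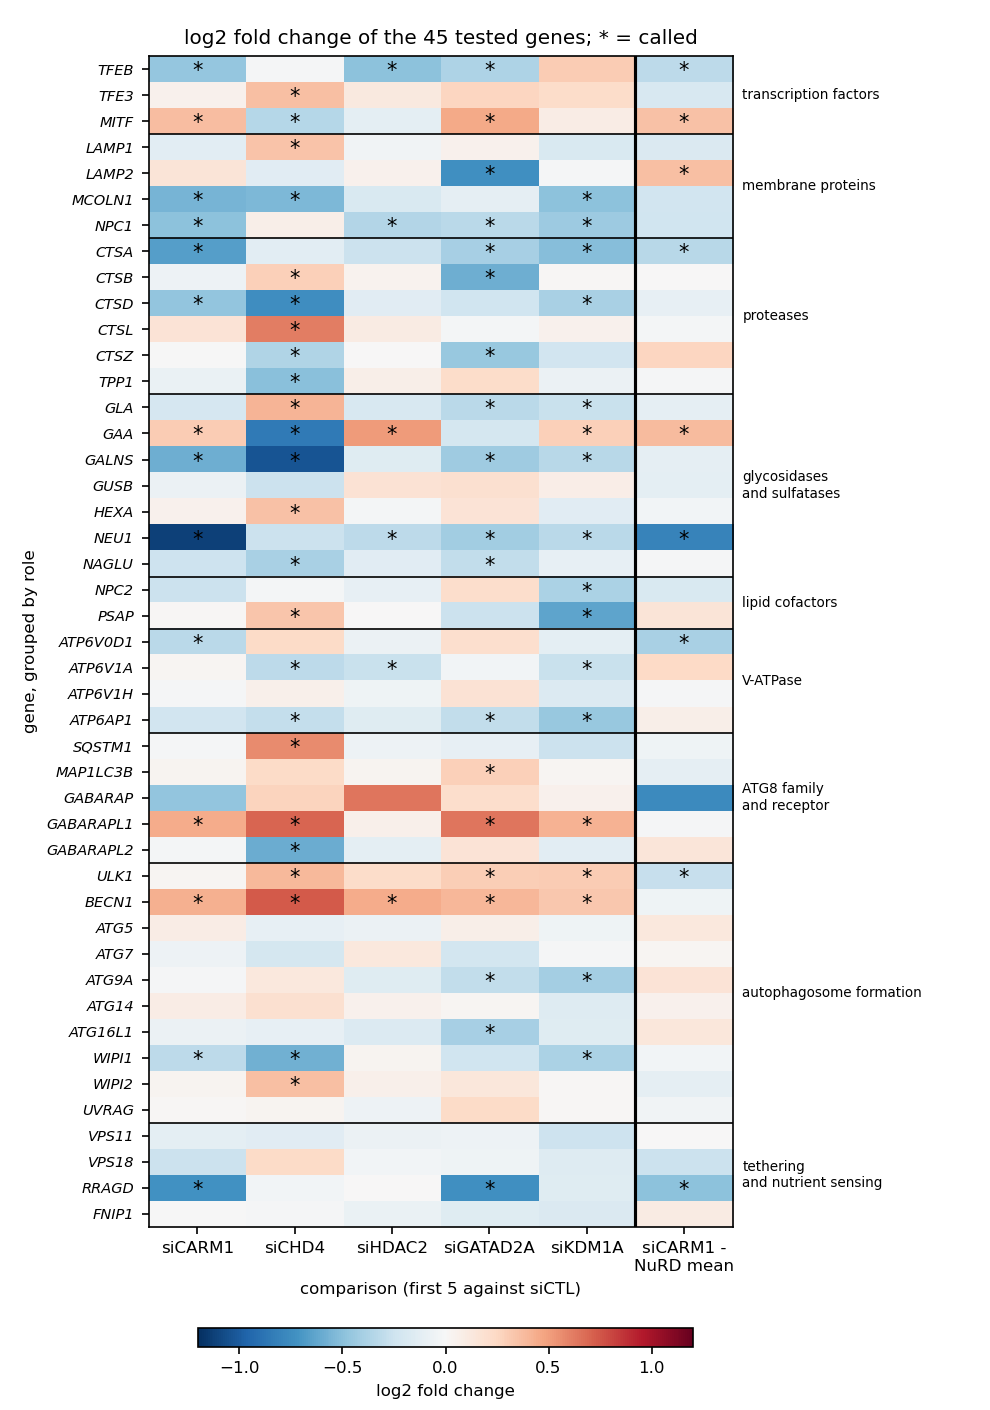
Heat map of log2 fold changes of the 45 tested genes, in rows by role, against siCTL in the first 5 columns and between siCARM1 and the mean of the 4 NuRD knockdowns in the last, with a star for each call. NEU1 in siCARM1 (−1.12) and GALNS in siCHD4 (−1.04) are the darkest blue cells, and BECN1 is red with a star in all 5 knockdowns.

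The transcription factors moved in different directions. TFEB was a low transcript, at 0.948 ± 0.055 FPKM in siCTL (SD, n = 2), against 16.7 ± 0.2 for TFE3 and 1.38 ± 0.06 for MITF. TFEB stood at 6.45 and 7.04 CPM in siCTL, 4.95 and 4.87 in siCARM1, 7.02 and 6.35 in siCHD4, 4.85 and 4.77 in siHDAC2, 5.37 and 5.09 in siGATAD2A, and 8.04 and 8.68 in siKDM1A. Both libraries of siCARM1, siHDAC2 and siGATAD2A were below both siCTL libraries, those of siKDM1A were above them, and those of siCHD4 overlapped with them. TFEB fell in siCARM1 by 0.46 on the log2 scale (SE 0.15, edgeR adjusted p = 0.0116), in siHDAC2 by 0.49 (adjusted p = 0.0108) and in siGATAD2A by 0.37 (adjusted p = 0.0363), and the value in siKDM1A was 0.31, not called. These calls were lost with single libraries left out: without siCTL replicate 2 the 3 values were −0.40, −0.43 and −0.30 with adjusted p of 0.101, 0.1 and 0.197. The siHDAC2 call was also lost without siHDAC2 replicate 2 (adjusted p = 0.0607), and the siGATAD2A call without siCTL replicate 1 (0.0509) and without siGATAD2A replicate 1 (0.0806) or 2 (0.147), and by DESeq2 (adjusted p = 0.103).

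MITF, the regulator of the melanocyte lineage and of lysosomal genes, went the other way from TFEB in siCARM1. It was at 11.1 and 10.5 CPM in siCTL, 13.1 and 14.9 in siCARM1, 8.44 and 8.65 in siCHD4, 10.7 and 9.35 in siHDAC2, 14.8 and 14.7 in siGATAD2A, and 10.5 and 12.4 in siKDM1A. The siCARM1 and siGATAD2A libraries lay above both siCTL libraries and the siCHD4 libraries below them. MITF rose in siCARM1 (0.37 ± 0.12, adjusted p = 0.00945) and in siGATAD2A (0.45 ± 0.12, adjusted p = 0.00156), and fell in siCHD4 (−0.34 ± 0.12, adjusted p = 0.0184). The first of these calls was lost without siCTL replicate 2 (0.33, adjusted p = 0.0831) or siCARM1 replicate 2 (0.28, adjusted p = 0.108), and the siCHD4 call without siCTL replicate 1 (−0.30, adjusted p = 0.0894) or siCHD4 replicate 1 (−0.33, adjusted p = 0.0689).

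TFE3, the most abundant of the 3 factors per length, was at 74.9 and 74.2 CPM in siCTL, 78.1 and 76.4 in siCARM1, 96.7 and 95.2 in siCHD4, 79.3 and 82.7 in siHDAC2, 90.2 and 87.5 in siGATAD2A, and 88.2 and 85.8 in siKDM1A. All 10 knockdown libraries were above both siCTL libraries, which are the same in each comparison. The test called TFE3 in siCHD4 alone (0.36 ± 0.05, adjusted p = 2.81e-07), and the log2 values elsewhere were 0.05 in siCARM1 to 0.25 in siGATAD2A, under the fold minimum. The siGATAD2A value passed it without siGATAD2A replicate 2 (0.28).

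**Figure D2:**
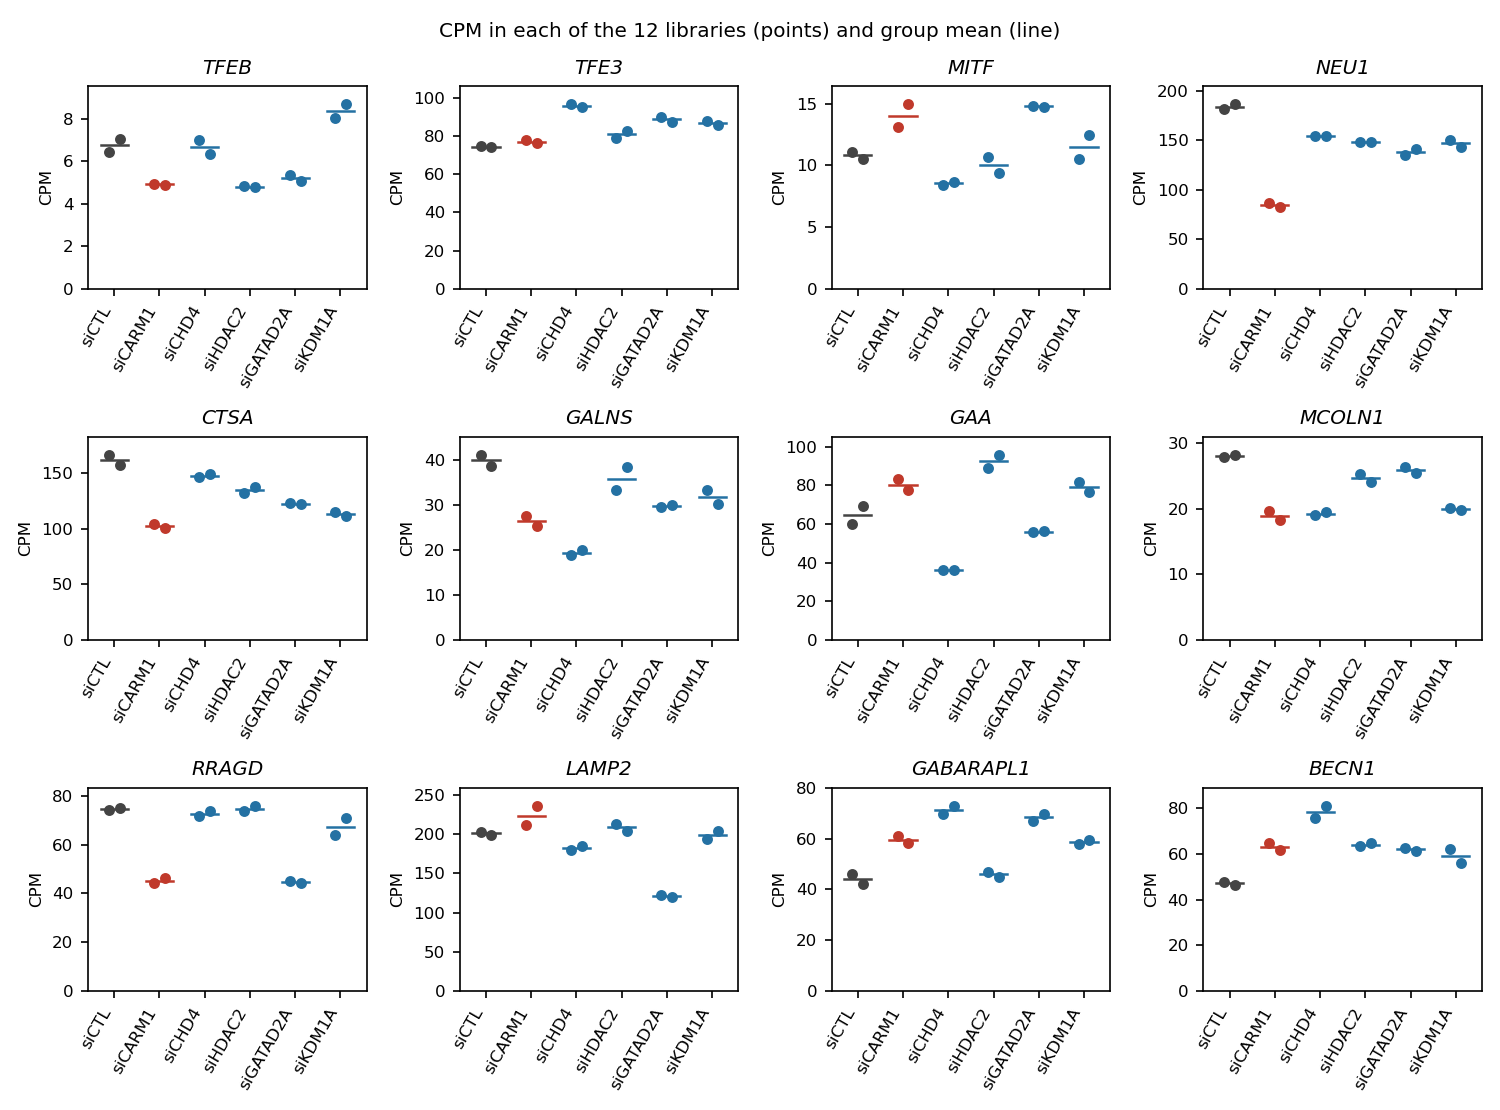
CPM of 12 genes in each library, siCTL in black, siCARM1 in red and the 4 NuRD knockdowns in blue, with the mean of the 2 libraries as a line and each axis from 0. NEU1 at 86.1 and 82.6 CPM in siCARM1 is below every other library, LAMP2 is lowest in siGATAD2A, and GAA is lowest in siCHD4 and highest in siHDAC2.

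Among the membrane proteins of the lysosome, MCOLN1 and NPC1 fell in several knockdowns, and LAMP2 in 1. MCOLN1 encodes the calcium channel mucolipin 1 and holds the CLEAR core at 2 places in its promoter. It was at 27.8 and 28.2 CPM in siCTL, 19.7 and 18.2 in siCARM1, 19.1 and 19.5 in siCHD4, 25.3 and 24.0 in siHDAC2, 26.4 and 25.4 in siGATAD2A, and 20.1 and 19.8 in siKDM1A. Every knockdown library was below both siCTL libraries, and those of siCARM1, siCHD4 and siKDM1A stood apart from the rest. The log2 fold changes were −0.56 ± 0.08 in siCARM1, −0.54 ± 0.08 in siCHD4 and −0.49 ± 0.08 in siKDM1A (edgeR adjusted p = 1.26e-06, 9.4e-07 and 1.21e-05), and −0.19 and −0.11, not called, in siHDAC2 and siGATAD2A.

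NPC1, the transporter that moves cholesterol out of the lysosome, was at 96.3 and 98.7 CPM in siCTL, 69.4 and 68.9 in siCARM1, 102 and 102 in siCHD4, 74.4 and 78.0 in siHDAC2, 76.4 and 79.3 in siGATAD2A, and 73.0 and 71.6 in siKDM1A. It fell in siCARM1 (−0.50 ± 0.05, adjusted p = 2.84e-09), siKDM1A (−0.43 ± 0.05, adjusted p = 4.91e-08), siHDAC2 (−0.35 ± 0.05) and siGATAD2A (−0.33 ± 0.05), and the siCHD4 libraries, at 0.07, were above both siCTL libraries. LAMP2, an abundant glycoprotein of the lysosomal membrane that also serves chaperone-mediated autophagy, was at 204 and 199.7 CPM in siCTL, 212 and 236 in siCARM1, 180.1 and 186 in siCHD4, 213 and 204.5 in siHDAC2, 122 and 120.1 in siGATAD2A, and 194 and 204 in siKDM1A. Only the siGATAD2A value was called, a fall of 0.73 on the log2 scale (SE 0.05, edgeR adjusted p = 9.68e-14). The siCARM1 value of 0.15 had an adjusted p of 0.00896 in the same test but was under the fold minimum. LAMP1, its partner in the membrane, rose in siCHD4 (0.34) and ranged from −0.18 to 0.05 in the other 4.

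The 6 tested proteases showed 10 falls and 2 rises over the 5 comparisons, or 33.3% and 6.67% of their 30 results, where 15.6% of the results of all tested genes were falls and 15.9% rises. These 30 results repeat the same 6 genes against the same siCTL libraries. CTSA, the carboxypeptidase also called protective protein because it stabilises the sialidase NEU1, was at 166 and 157 CPM in siCTL, 104 and 101 in siCARM1, 146 and 149 in siCHD4, 132 and 137 in siHDAC2, 123 and 122 in siGATAD2A, and 115 and 111 in siKDM1A. All 10 knockdown libraries were below both siCTL libraries, and those of siCARM1 were the lowest. CTSA fell by 0.66 in siCARM1 (SE 0.05, edgeR adjusted p = 1.13e-12), by 0.51 in siKDM1A and by 0.40 in siGATAD2A. The siHDAC2 value of −0.26 lay at the fold minimum and was called with RLE size factors (−0.26), DESeq2 (−0.26), all coding genes with at least 1 count (−0.27), counts without regard to strand (−0.27), without siCTL replicate 2 (−0.30) and without siHDAC2 replicate 2 (−0.29).

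CTSD, the main aspartic protease of the lysosome, was at 80.8 and 82.9 CPM in siCTL, 61.5 and 56.4 in siCARM1, 46.6 and 51.4 in siCHD4, 72.8 and 76.4 in siHDAC2, 70.2 and 68.3 in siGATAD2A, and 63.9 and 60.9 in siKDM1A. Here the siCHD4 libraries were the lowest, at −0.74 ± 0.06 (adjusted p = 4.15e-12), followed by siCARM1 at −0.47 ± 0.06 and siKDM1A at −0.39 ± 0.06. Of the exonic bases of CTSD, 27.3% are shared with other annotated genes on the same strand.

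CTSB, a cysteine cathepsin, moved in both directions. It was at 127 and 134 CPM in siCTL, 128 and 122 in siCARM1, 158 and 159 in siCHD4, 134 and 134 in siHDAC2, 86.5 and 87.9 in siGATAD2A, and 132 and 131 in siKDM1A. It fell in siGATAD2A (−0.58 ± 0.05, adjusted p = 1.06e-11) and rose in siCHD4 (0.28 ± 0.05, adjusted p = 3.32e-06), the latter under the fold minimum without siCTL replicate 1 (0.24) and over all coding genes with at least 1 count (0.26). Of the other proteases, CTSL rose in siCHD4 (0.61), CTSZ fell in siCHD4 (−0.36) and siGATAD2A (−0.45) and, without siKDM1A replicate 1, in siKDM1A (−0.27), and TPP1, the tripeptidyl peptidase, fell in siCHD4 (−0.50). CTSF had 0 to 1 counts in the group means, and CLN3 was at 1.65 to 2.06 CPM. Of the exonic bases of CLN3, 25.3% are shared with another annotated gene on the same strand, so its level is uncertain.

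The glycosidases and sulfatases held the largest changes of the list. NEU1, the lysosomal sialidase (chromosome 6, 31825436 to 31830682 on the minus strand of GRCh37), was at 182 and 186 CPM in siCTL, 86.1 and 82.6 in siCARM1, 154 and 154 in siCHD4, 148 and 148 in siHDAC2, 135 and 141 in siGATAD2A, and 149.9 and 144 in siKDM1A. All 10 knockdown libraries were below both siCTL libraries, and the 2 of siCARM1 were below all others by a wide margin. NEU1 fell by 1.12 on the log2 scale in siCARM1 (SE 0.05, 2.18-fold, edgeR adjusted p = 2.29e-18), by 0.41 in siGATAD2A (adjusted p = 4.94e-09), by 0.33 in siKDM1A and by 0.31 in siHDAC2. In siCHD4 its value of −0.26 was just under the fold minimum and was called without siCTL replicate 1 (−0.27), without siCHD4 replicate 1 (−0.27) and over all coding genes with at least 1 count (−0.28).

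GALNS, the sulfatase that acts on keratan sulfate and chondroitin sulfate, was at 41.1 and 38.9 CPM in siCTL, 27.6 and 25.4 in siCARM1, 18.9 and 20.02 in siCHD4, 33.4 and 38.5 in siHDAC2, 29.6 and 30.0 in siGATAD2A, and 33.4 and 30.2 in siKDM1A. Every knockdown library was again below both siCTL libraries, and the order differed from NEU1, with siCHD4 lowest. GALNS fell by 1.04 in siCHD4 (SE 0.08, 2.06-fold, adjusted p = 2.37e-12), by 0.59 in siCARM1 (adjusted p = 3.69e-07), by 0.42 in siGATAD2A and by 0.33 in siKDM1A, the last under the fold minimum without siKDM1A replicate 2 (−0.26).

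GAA, the acid alpha-glucosidase that degrades glycogen, is the one tested gene of the list with the CLEAR core that rose in siCARM1. It was at 60.2 and 69.4 CPM in siCTL, 83.1 and 77.5 in siCARM1, 36.0 and 36.1 in siCHD4, 89.2 and 95.5 in siHDAC2, 55.7 and 56.2 in siGATAD2A, and 81.5 and 76.8 in siKDM1A. The siCARM1, siHDAC2 and siKDM1A libraries were above both siCTL libraries, and the siCHD4 and siGATAD2A libraries below them. GAA rose in siHDAC2 (0.51 ± 0.06, adjusted p = 1.17e-07), siCARM1 (0.31 ± 0.06, adjusted p = 0.000139) and siKDM1A (0.28 ± 0.06, adjusted p = 0.000422), and fell in siCHD4 (−0.85 ± 0.07, adjusted p = 2.22e-12). The siCARM1 call was lost without siCTL replicate 1 (0.21) or siCARM1 replicate 1 (0.25), and the siKDM1A call without siCTL replicate 1 (0.19) or siKDM1A replicate 1 (0.24). Without siCTL replicate 1, the value in siGATAD2A was called as a fall (−0.31 in place of −0.22).

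GLA, the alpha-galactosidase, was at 56.5 and 56.6 CPM in siCTL, 47.2 and 51.6 in siCARM1, 74.4 and 75.4 in siCHD4, 51.2 and 47.9 in siHDAC2, 44.04 and 46.7 in siGATAD2A, and 46.8 and 47.5 in siKDM1A. It rose in siCHD4 (0.40 ± 0.06, adjusted p = 6.07e-07) and fell in siGATAD2A (−0.32 ± 0.06) and siKDM1A (−0.26 ± 0.06), the last under the fold minimum without siKDM1A replicate 1 (−0.26), where the value in siCARM1 of −0.20 was called without siCARM1 replicate 2 (−0.26). HEXA, a subunit of beta-hexosaminidase, rose in siCHD4 (0.35), NAGLU fell in siCHD4 (−0.38) and siGATAD2A (−0.30, under the fold minimum without siGATAD2A replicate 1 at −0.24), and GUSB, the beta-glucuronidase, was called in none, with log2 values from −0.26 to 0.20, other than in siCHD4 without siCTL replicate 1 (−0.29), without siCHD4 replicate 1 (−0.30) or over all coding genes with at least 1 count (−0.28). Without siCARM1 replicate 1, NAGLU was also called in siCARM1 (−0.34).

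PSAP and NPC2 carry lipids to the enzymes or to NPC1 in the lysosome, and both fell in siKDM1A. PSAP, the saposin precursor, was the most abundant gene of the list per length, at 222 ± 1 FPKM in siCTL. Its levels were 730.0 and 737 CPM in siCTL, 744 and 736 in siCARM1, 934 and 912 in siCHD4, 716 and 751 in siHDAC2, 613 and 614 in siGATAD2A, and 472 and 472 in siKDM1A. PSAP fell by 0.64 in siKDM1A (SE 0.04, edgeR adjusted p = 3.62e-15) and rose by 0.33 in siCHD4 (adjusted p = 1.02e-09), and its siGATAD2A value of −0.26 was just under the fold minimum, which it passed without siCTL replicate 1, in counts without regard to strand and over all coding genes with at least 1 count (−0.26 each). NPC2 was at 24.2 and 24.4 CPM in siCTL, 21.7 and 18.8 in siCARM1, 24.6 and 23.3 in siCHD4, 22.3 and 23.0 in siHDAC2, 28.9 and 27.1 in siGATAD2A, and 17.8 and 19.4 in siKDM1A. The fall of NPC2 in siKDM1A was 0.38 (SE 0.09, edgeR adjusted p = 0.000753). Its siCARM1 value of −0.26 was just under the fold minimum and was called without siCARM1 replicate 1 (−0.37) and over all coding genes with at least 1 count (−0.26).

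The V-ATPase pumps protons into the lysosome, and its 4 genes on the list showed 7 falls and no rise over the 5 comparisons (35.0% of their 20 results, against 15.6% falls and 15.9% rises over all tested genes). Here too the same 4 genes are repeated against the same siCTL libraries. ATP6V0D1, a subunit of the membrane sector with the CLEAR core in its promoter, was at 75.9 and 74.5 CPM in siCTL, 62.8 and 56.8 in siCARM1, 91.3 and 84.5 in siCHD4, 69.7 and 73.4 in siHDAC2, 85.8 and 87.0 in siGATAD2A, and 69.7 and 69.2 in siKDM1A. It fell in siCARM1 (−0.33 ± 0.06, edgeR adjusted p = 2.71e-05), with both libraries below all others, and its siCHD4 value of 0.23 was called as a rise without siCHD4 replicate 2 (0.27). ATP6AP1, an accessory protein of the pump, was at 206 and 211 CPM in siCTL, 183 and 172 in siCARM1, 174 and 168 in siCHD4, 186 and 190.3 in siHDAC2, 171 and 168 in siGATAD2A, and 152 and 152 in siKDM1A. It fell in siKDM1A (−0.46 ± 0.04, adjusted p = 8.86e-10), siGATAD2A (−0.30 ± 0.04) and siCHD4 (−0.29 ± 0.04), and its value in siCARM1 was −0.23, called without siCARM1 replicate 1 (−0.27). ATP6V1A, the catalytic subunit, fell in siCHD4 (−0.31), siHDAC2 (−0.27) and siKDM1A (−0.27), the last 2 at the fold minimum and lost without siCTL replicate 2 (−0.23 each), without siHDAC2 replicate 2 (−0.26) and without siKDM1A replicate 2 (−0.25), respectively. ATP6V1H was called in none.

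Among the genes of the autophagy machinery, BECN1 and GABARAPL1 rose in at least 4 knockdowns, which is 4.44% of the list against 5.73% of all tested genes. BECN1, the beclin 1 subunit of the lipid kinase complex that starts the autophagosome, was the only gene of the list called in all 5 comparisons with siCTL, as were 2.28% of all tested genes in the same direction. It was at 47.7 and 46.6 CPM in siCTL, 64.7 and 61.6 in siCARM1, 75.8 and 80.9 in siCHD4, 63.3 and 64.8 in siHDAC2, 62.7 and 61.4 in siGATAD2A, and 62.0 and 56.0 in siKDM1A. All 10 knockdown libraries were above both siCTL libraries. The rise was 0.73 in siCHD4 (SE 0.06, edgeR adjusted p = 5.33e-12), 0.44 in siHDAC2, 0.42 in siCARM1, 0.40 in siGATAD2A and 0.32 in siKDM1A (SE 0.06 each), the last lost without siKDM1A replicate 1 (0.25) and in counts without regard to strand (0.23), where 17.1% of its exonic bases are shared with genes of the other strand.

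GABARAPL1, a ubiquitin-like protein of the ATG8 family that is conjugated to the autophagosome membrane, was at 45.9 and 42.04 CPM in siCTL, 60.9 and 58.4 in siCARM1, 69.7 and 72.8 in siCHD4, 47.1 and 44.9 in siHDAC2, 67.0 and 69.9 in siGATAD2A, and 57.8 and 59.4 in siKDM1A. The siHDAC2 libraries overlapped with siCTL and the other 8 were above it. It rose by 0.70 in siCHD4 (adjusted p = 1.84e-11), 0.64 in siGATAD2A (adjusted p = 2.86e-10), 0.44 in siCARM1 (adjusted p = 6.35e-07) and 0.42 in siKDM1A (adjusted p = 2.43e-06), with SE 0.06 each, and its value in siHDAC2 was 0.06. GABARAPL2 of the same family was at 60.4 and 61.5 CPM in siCTL, 55.5 and 65.3 in siCARM1, 39.3 and 41.5 in siCHD4, 57.0 and 55.5 in siHDAC2, 67.4 and 69.1 in siGATAD2A, and 55.1 and 56.6 in siKDM1A, and fell in siCHD4 alone (−0.59 ± 0.07, adjusted p = 4.6e-09). In siCHD4, therefore, GABARAPL1 rose and GABARAPL2 fell.

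SQSTM1, the autophagy receptor p62, rose in siCHD4 (0.56) and had log2 values of −0.26 to −0.01 elsewhere, of which that in siKDM1A was called as a fall under 5 alternatives, among them without siCTL replicate 1 (−0.28) or siKDM1A replicate 1 (−0.29). MAP1LC3B, the LC3 protein widely used as an autophagosome marker, rose in siGATAD2A (0.29), under the fold minimum without siCTL replicate 2 (0.24) or siGATAD2A replicate 1 (0.25), and was called in siCHD4 without siCTL replicate 1 (0.28). GABARAP itself had 13 to 40 counts per library and passed the filter on low values only through siHDAC2, at 0.606 FPKM there and 0.408 in siCTL. It was called in none, and 35.4% of its exonic bases are shared with another annotated gene on the same strand, so its level is uncertain.

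ULK1, the kinase that starts autophagy when nutrients fall, rose in 3 of the NuRD knockdowns. It was at 149 and 154.5 CPM in siCTL, 159 and 149 in siCARM1, 201 and 196 in siCHD4, 172 and 182 in siHDAC2, 189.7 and 182 in siGATAD2A, and 189.9 and 186 in siKDM1A. The siCARM1 libraries overlapped with siCTL and all 8 NuRD libraries were above it. The log2 fold changes were 0.39 ± 0.05 in siCHD4 (edgeR adjusted p = 1.34e-08), 0.31 ± 0.05 in siKDM1A and 0.29 ± 0.05 in siGATAD2A, the last just under the fold minimum without siGATAD2A replicate 1 (0.26), and 0.02 in siCARM1.

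WIPI1, which binds the phosphoinositide made by the beclin 1 complex, was at 10.99 and 13.8 CPM in siCTL, 10.0 and 9.97 in siCARM1, 7.95 and 8.77 in siCHD4, 12.9 and 12.6 in siHDAC2, 10.6 and 10.6 in siGATAD2A, and 9.41 and 9.77 in siKDM1A. The 2 siCTL libraries were far apart and enclosed those of siHDAC2. WIPI1 fell in siCHD4 (−0.57 ± 0.12, adjusted p = 0.000144), siKDM1A (−0.38 ± 0.12, adjusted p = 0.012) and siCARM1 (−0.32 ± 0.12, adjusted p = 0.0282). Without siCTL replicate 2 the siKDM1A value was −0.20 (adjusted p = 0.315) and the siCARM1 value −0.14 (adjusted p = 0.479), the siKDM1A call was also lost without siKDM1A replicate 1 (adjusted p = 0.0628), and the siCARM1 call without siCARM1 replicate 1 (0.0802) or 2 (0.0752), by DESeq2 (0.0766) and in counts without regard to strand (−0.17, adjusted p = 0.289). Without siCTL replicate 1, WIPI1 was also called lower in siGATAD2A (−0.38).

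Of the other genes of autophagosome formation, ATG9A, the membrane scramblase, fell in siKDM1A (−0.41) and siGATAD2A (−0.29, and −0.26 without siGATAD2A replicate 1), ATG16L1 fell in siGATAD2A (−0.39), and WIPI2 rose in siCHD4 (0.36). ATG9A shares 38.8% of its exonic bases with another annotated gene on the same strand. ATG5, ATG7, ATG14 and UVRAG were called in none of the 5, with log2 values between −0.22 and 0.23, although UVRAG in siGATAD2A was called without siCTL replicate 1 (0.28) or siGATAD2A replicate 1 (0.31), and ATG14 in siCHD4 without siCTL replicate 2 (0.29).

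RRAGD, a Rag GTPase that brings mTORC1 to the lysosome, was the one gene called among the tethering and nutrient sensing genes. It was at 74.3 and 74.9 CPM in siCTL, 44.2 and 46.2 in siCARM1, 71.9 and 73.7 in siCHD4, 73.9 and 75.7 in siHDAC2, 45.3 and 44.4 in siGATAD2A, and 63.8 and 70.9 in siKDM1A. The siCARM1 and siGATAD2A libraries formed a low group at nearly the same level, and all others were above 63. RRAGD fell by 0.72 in siCARM1 (SE 0.06, edgeR adjusted p = 2.18e-11) and by 0.73 in siGATAD2A (adjusted p = 8.49e-12), and its value in siKDM1A was −0.15. VPS11 and VPS18, subunits of the tethering complexes CORVET and HOPS, and FNIP1, a partner of folliculin, had values of −0.26 to 0.23 and none was called, other than VPS11 in siKDM1A without siKDM1A replicate 1 (−0.28) and VPS18 in siCARM1 without siCARM1 replicate 1 (−0.30) or over all coding genes with at least 1 count (−0.26).

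To find which genes differed between the CARM1 and the NuRD knockdowns, siCARM1 was compared with the mean of the 4 NuRD groups in the same model, a contrast that the siCTL libraries do not enter. In this comparison 6 of the 45 genes were lower and 3 higher in siCARM1, where 10.3% of all tested genes were lower and 11.8% higher, and the median of the list was −0.04 against 0.009 over all genes. NEU1 had the largest called difference, 0.80 lower in siCARM1 on the log2 scale (95% interval −0.88 to −0.72, edgeR adjusted p = 1.19e-16). Next came RRAGD (−0.50, interval −0.59 to −0.40), ATP6V0D1 (−0.39, −0.48 to −0.29), CTSA (−0.33, −0.41 to −0.25), TFEB (−0.32, −0.56 to −0.07) and ULK1 (−0.28, −0.35 to −0.20). Higher in siCARM1 were GAA (0.38, 0.28 to 0.47), LAMP2 (0.36, 0.29 to 0.44) and MITF (0.35, 0.17 to 0.53).

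The mean over the 4 NuRD groups covered unlike values for several of these genes. LAMP2 and RRAGD were far from siCTL in siGATAD2A but not called in the other 3 NuRD knockdowns, and GAA was lowest in siCHD4. GAA was higher in siHDAC2 (89.2 and 95.5 CPM) than in siCARM1 (83.1 and 77.5). TFEB was at 4.85 and 4.77 CPM in siHDAC2, near its 4.95 and 4.87 in siCARM1. MITF was at 14.8 and 14.7 CPM in siGATAD2A, between its 13.1 and 14.9 in siCARM1. NEU1, in contrast, was lower in both siCARM1 libraries than in any of the 8 NuRD libraries, as were ATP6V0D1, CTSA and ULK1. Differences between single NuRD knockdowns were not tested. The TFEB difference had an adjusted p of 0.0279 and was not called by DESeq2 (0.0839) or without siCARM1 replicate 1 (0.118), siCARM1 replicate 2 (0.134) or siCHD4 replicate 1 (0.0517). The MITF difference was not called without siCARM1 replicate 2 (0.26, adjusted p = 0.074), nor that of ULK1 (−0.23). Without siCARM1 replicate 1, differences of ATP6V1A (0.30), GABARAPL2 (0.27), MCOLN1 (−0.29), NPC2 (−0.29) and VPS18 (−0.29) were called as well. VPS18 was also called without siKDM1A replicate 2 (−0.27), CTSZ without siCARM1 replicate 2 (0.35), siCHD4 replicate 1 (0.26) or siKDM1A replicate 1 (0.26), and GABARAP without siGATAD2A replicate 1 (−0.86) or siKDM1A replicate 2 (−0.85).

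**Figure D3:**
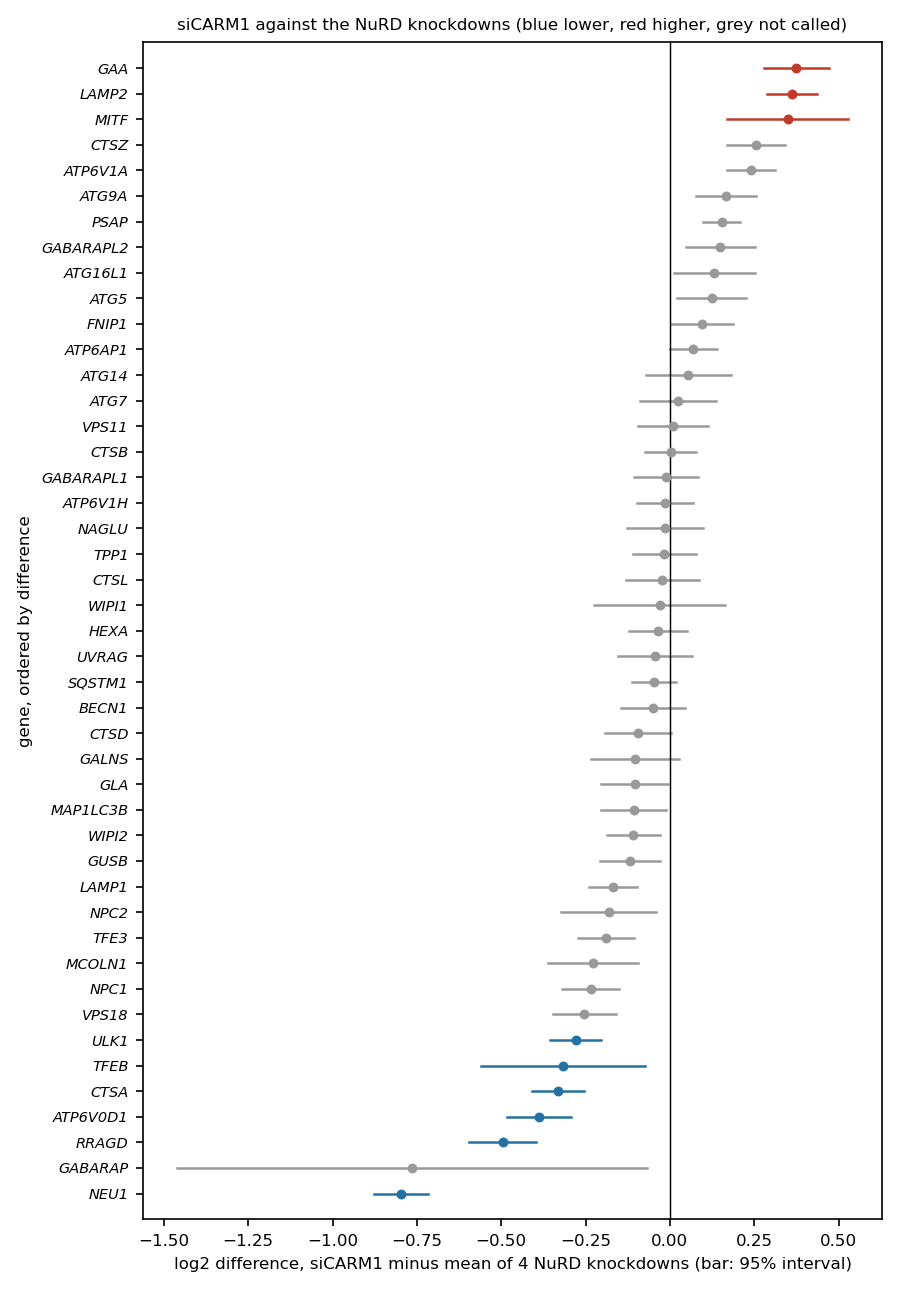
Log2 difference between siCARM1 and the mean of the 4 NuRD knockdowns for the 45 tested genes, with 95% intervals, ordered by difference, lower calls in blue and higher calls in red. NEU1 at −0.80 is lowest, GAA at 0.38 is highest, and GABARAP, with 13 to 40 counts per library and no call, has the widest interval.

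The genes with and without the CLEAR core were then set side by side as a description, with no test. In siCARM1, the 7 tested genes with the core had a median log2 fold change of −0.33, and 4 of them fell (MCOLN1, CTSA, GALNS and ATP6V0D1) and 1 rose (GAA). The 28 tested genes with a window but without the core had a median of −0.02, with 5 falls and 3 rises. Genes without a window, RRAGD among them, are in neither set. The sets also differ in role. None of the 7 is of the ATG8 family and receptor or of autophagosome formation. All genes of these roles with a window are among the 28. The medians of these roles in siCARM1 were −0.01 and 0.02. Whether the core or the role goes with the lower values was not tested. Across all 197 tested genes whose promoters hold the core, the median in siCARM1 was −0.07, and 19.3% fell and 10.2% rose, as against 14.2% and 14.8% of the 10395 tested genes with a window. The median of all tested genes with the core was thus nearer to 0 than that of the 7 genes of the list.

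The same split gave medians of −0.14 with the core and −0.02 without it in siCHD4, −0.07 and −0.03 in siHDAC2, −0.11 and 0.003 in siGATAD2A, and −0.25 and −0.10 in siKDM1A. Over all 197 genes with the core, the medians were −0.03, −0.03, −0.002 and −0.05 in these 4 knockdowns. In siHDAC2 none of the 7 genes fell and GAA rose. NEU1, whose window holds only the plain E-box, fell the most of the list in siCARM1, and GAA, with the core at 2 places, moved against the others in siCARM1, siHDAC2 and siKDM1A.

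Other genes of these pathways, from a list of 129 of which 125 were tested, gave counts to be read against the all-gene shares given above. In siCARM1, 33 of the 125 fell and 13 rose (26.4% and 10.4%, against 14.5% and 14.9% of all tested genes), with a median of −0.07. In siCHD4 31 fell and 36 rose (24.8% and 28.8%, against 24.9% and 24.0%). In siHDAC2 the counts were 17 and 9 (13.6% and 7.2%, against 9.00% and 10.6%). In siGATAD2A they were 26 and 17 (20.8% and 13.6%, against 18.2% and 15.7%). In siKDM1A they were 24 and 9 (19.2% and 7.2%, against 11.5% and 14.2%). In siCARM1 against the NuRD mean they were 20 and 9 (16% and 7.2%, against 10.3% and 11.8%). Of the 13 further V-ATPase subunits, 7 fell and none rose in siCARM1 (53.8% lower, against 14.5% of all tested genes), with a median of −0.26. In siCHD4 3 of them fell and 4 rose (23.1% and 30.8%, against 24.9% and 24.0%). In siGATAD2A 1 fell and 3 rose (7.69% and 23.1%, against 18.2% and 15.7%). In siHDAC2 and siKDM1A 4 fell and none rose in each (30.8% lower, against 9.00% and 11.5%). The largest fall was that of ATP6V1C1 in siCARM1 (−0.66 ± 0.06, edgeR adjusted p = 7.15e-11) and the largest rise that of ATP6V0C in siCHD4 (0.93 ± 0.27, adjusted p = 0.00361), in which the error was wide. Of the exonic bases of ATP6V0C, 76.3% are shared with other annotated genes on the same strand, so its level is uncertain.

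The 28 further lysosomal enzymes fell most often in siGATAD2A, with 15 falls, 3 rises and a median of −0.33. That is 53.6% lower and 10.7% higher, against 18.2% and 15.7% of all tested genes. In siCARM1 12 fell and 4 rose (42.9% and 14.3%, against 14.5% and 14.9%). In siCHD4 the counts were 12 and 8 (42.9% and 28.6%, against 24.9% and 24.0%). In siHDAC2 they were 5 and 3 (17.9% and 10.7%, against 9.00% and 10.6%). In siKDM1A they were 9 and 4 (32.1% and 14.3%, against 11.5% and 14.2%). SCPEP1, a serine carboxypeptidase of the same family as CTSA, fell by 2.10 in siCHD4 (SE 0.08, adjusted p = 1.95e-20), and PPT1, the palmitoyl-protein thioesterase, rose by 0.81 there. Among 16 further membrane proteins, LAPTM4A, a transmembrane protein of endosomes and lysosomes, fell by 1.46 in siCARM1 (SE 0.06, adjusted p = 1.92e-18), and TMEM192 rose by 0.88 in siCHD4. Of 6 sorting genes, SORT1 (sortilin) fell by 0.54 in siKDM1A and IGF2R, the cation-independent mannose 6-phosphate receptor that carries new enzymes to the lysosome, rose by 0.98 in siCHD4.

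On the side of autophagy, the 22 further genes of autophagosome formation gave 5 falls and 3 rises in siCARM1 (22.7% and 13.6%, against 14.5% and 14.9% of all tested genes). In siCHD4 they gave 3 and 6 (13.6% and 27.3%, against 24.9% and 24.0%). ATG10 was lowest in siGATAD2A (−0.59) and ATG2A highest in siCHD4 (0.51). Of 14 tested ATG8 proteins and receptors 1 fell and 1 rose in siCARM1 (7.14% each, against 14.5% and 14.9%). TOLLIP was lowest in siKDM1A (−0.69) and MAP1LC3A highest in siCHD4 (1.77 ± 0.62, edgeR adjusted p = 0.0137), again with a wide error. The 7 further tethering genes included VPS16, which fell in siGATAD2A (−0.45), and VPS8, which rose in siCARM1 (0.36). Among 19 genes of nutrient sensing, NPRL3 of the GATOR1 complex fell by 0.999 in siCHD4 and RRAGB rose by 0.57 in siGATAD2A, where RRAGD of the same GTPase family fell.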

How the data were processed

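RNA was sequenced as paired ends from directional libraries, at either of 2 companies that the labels do not assign to libraries. Per library, the authors deposited raw gene counts of read pairs in an unstranded, a forward and a reverse column, and the submitters' processing notes name STAR 2.7.10 and hg19; the annotation is not given in the sources used here, and the study's methods name TopHat, HOMER and DESeq2. Pairs with several locations or on several genes are left out of such counts. Reverse-strand counts were used here. Identifiers were matched to GENCODE mapped to GRCh37; the unmatched ones, 1.75% to 2.61% of the counts, were dropped. CPM and FPKM were computed here, CPM with TMM-scaled library sizes. edgeR 4.0.16 (R 4.3.3) fitted 6 group means with 6 residual degrees of freedom, a biological coefficient of variation of 3.47% and TMM factors of 0.968 to 1.01, and p-values were adjusted by Benjamini-Hochberg over 12830 genes. Standard errors and intervals come from this model. Replicates differed beyond counting error in every group (chi-square per degree of freedom 1.77 in siCHD4 to 4.99 in siCARM1). The model uses 1 spread per gene over all groups, so errors can be too small for siCARM1 and too large for siCHD4. The script was tested on simulated data. The members and lists were chosen with earlier results of these data known. Genes are given per library if they are one of the 3 factors, were called in the same direction in at least 4 knockdowns or in both directions, had 1 of the 2 largest called changes of their role, or differed between siCARM1 and the NuRD mean; of each further list, the called genes with the largest fall and rise are named. DESeq2 1.42.0, RLE factors, other filters, counts without regard to strand, no fold minimum, a replicate block, pairs of groups alone and each library left out were the alternatives.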

Additional observations from a re-analysis of the deposited data

Results flagged for a closer look

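For 9 genes the effect of siCARM1 differed from the mean effect of the 4 NuRD knockdowns by the test of the difference itself (edgeR, called by the thresholds of the report). By direction, 13.3% of the 45 genes were lower and 6.67% higher, as against 10.3% and 11.8% of all tested genes. On the log2 scale, siCARM1 was lower by the following amounts: NEU1 −0.80, RRAGD −0.50, ATP6V0D1 −0.39, CTSA −0.33, TFEB −0.32 and ULK1 −0.28. It was higher for GAA at 0.38, LAMP2 at 0.36 and MITF at 0.35. For RRAGD, TFEB, MITF and GAA, the group mean of a single NuRD knockdown lay beyond that of siCARM1 in the same direction. All 3 of the differences with the lowest counts or nearest the fold minimum (TFEB, MITF and ULK1) were lost when 1 library was left out, as given beside them in the report.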

How the results depend on the processing

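With no fold minimum, the counts of called genes moved by more than 1.5 times: lower in siCARM1 16 in place of 10, lower and higher in siHDAC2 8 and 4 in place of 4 and 2, higher in siGATAD2A 15 in place of 5, lower in siKDM1A 22 in place of 13, and lower and higher in siCARM1 against the NuRD mean 14 and 9 in place of 6 and 3. With each library left out in turn, the count higher in siKDM1A ranged from 2 (without siKDM1A replicate 1) to 4, and that higher in siCARM1 against the NuRD mean from 3 to 5 (without siCARM1 replicate 1). No value reversed. Of the 89 calls over the 6 comparisons, 67 held under every alternative other than the fold minimum and 22 were lost under at least 1; of 181 uncalled results, 28 were called under at least 1. With the replicate block, all 270 results stayed on the same side of the threshold, and the called ones kept their direction. The direction of uncalled values was not compared. The replicate numbers share only a number: deviations of replicate 1 correlated at −0.142 to 0.136 between groups, and 1 of 15 pairs was over 0.1. Depth limits TFEB, MITF, WIPI1 and GABARAP, the genes of the list with the lowest counts among those tested.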
